A study of Homo sapiens with 16 samples.

Results

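The genes described here encode tRNA modification enzymes and subunits of the complexes they work in. They were taken by symbol from a list of 43 names, and all 43 were found among the 58302 human gene identifiers of the expression table. Expression was measured by RNA-seq in UM-UC-3, an established human bladder cancer cell line, 48 h after transfection with 75 nM of 1 of 2 siRNAs. The control arm (2 libraries, replicates 2 and 3) received a negative control siRNA, and the NAT10-si arm (2 libraries, replicates 2 and 3) received an siRNA against NAT10, the acetyltransferase that makes N4-acetylcytidine in RNA. The same genes were looked up in 4 lists of peaks from immunoprecipitation of acetylated RNA (acRIP), with 1 list for each arm in each of 2 rounds, called first and replicate. The labels name 1 siRNA sequence against NAT10. They do not say that replicates were separate cultures, so p-values cover only the spread seen between the libraries of an arm, and that spread may be technical. Libraries of T24 cells, and the earlier RNA-seq pair from UM-UC-3, were not analysed here.

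Transfer RNAs are the most heavily modified RNAs of the cell. Modifications in the body of the molecule, such as methylated bases, dihydrouridine and the pseudouridine of the T loop, are known to help it fold and to keep it stable, and modifications of the anticodon loop tune how it reads codons. Many of the enzymes work as pairs or complexes of a catalytic and a non-catalytic subunit. NAT10 itself belongs to the pathway, since with its partner THUMPD1 it acetylates a cytidine of serine and leucine tRNAs.

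The siRNAs are shown first because every comparison rests on them. Both are printed 5′ to 3′ as the labels give them, in lower case, with the TT overhang in capitals.
NAT10 siRNA: ccaucucucgcaucuauuuTT
control siRNA: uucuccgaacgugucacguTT
The promoters of the 2 enzyme genes with the largest decreases and of the 2 with the largest increases are shown next. They cover the 250 bases before the start of the RefSeq gene in GRCh38.p14, 5′ to 3′ on the gene's strand. Capitals mark the only match in these 4 promoters to any of the 7 motifs searched on both strands, described further on. TRMT10C lies at chr3:101561618-101561867 (plus strand), DUS3L at chr19:5791164-5791413 (minus strand), CTU1 at chr19:51108410-51108659 (minus strand) and TRMT11 at chr6:125986290-125986539 (plus strand).
TRMT10C: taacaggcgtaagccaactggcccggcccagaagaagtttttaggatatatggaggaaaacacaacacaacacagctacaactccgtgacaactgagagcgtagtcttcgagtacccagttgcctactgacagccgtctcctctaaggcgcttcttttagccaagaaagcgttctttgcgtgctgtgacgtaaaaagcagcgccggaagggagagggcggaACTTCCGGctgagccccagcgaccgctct
DUS3L: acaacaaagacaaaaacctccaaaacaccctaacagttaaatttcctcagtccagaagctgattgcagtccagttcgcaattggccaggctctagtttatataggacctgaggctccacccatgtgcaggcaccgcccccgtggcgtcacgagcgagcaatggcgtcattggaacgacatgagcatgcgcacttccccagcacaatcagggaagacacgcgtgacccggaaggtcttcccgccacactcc
CTU1: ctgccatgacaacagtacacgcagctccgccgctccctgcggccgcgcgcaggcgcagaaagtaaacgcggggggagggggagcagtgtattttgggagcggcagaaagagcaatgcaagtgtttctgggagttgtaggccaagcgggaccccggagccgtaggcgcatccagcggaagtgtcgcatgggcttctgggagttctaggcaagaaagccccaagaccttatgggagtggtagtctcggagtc
TRMT11: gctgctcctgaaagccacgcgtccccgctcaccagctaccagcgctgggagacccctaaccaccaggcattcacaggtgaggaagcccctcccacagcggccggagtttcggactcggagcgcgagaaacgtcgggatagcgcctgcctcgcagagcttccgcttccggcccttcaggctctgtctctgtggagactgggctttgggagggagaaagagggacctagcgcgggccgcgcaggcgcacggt

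NAT10, the target of the siRNA, was measured first as a check of the labels. Its level was 19.0 and 17.6 FPKM (fragments scaled to gene length and library size) in the control libraries and 4.04 and 3.84 FPKM in the NAT10-si libraries. It fell by 1.97 on the log2(FPKM + 1) scale (SE 0.0611, limma adjusted p = 0.000111), which matches the labelled arms.

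Across the enzyme genes, more fell than rose after NAT10 siRNA. Of the 41 that were tested, 19 were lower and 6 higher in the NAT10-si arm, and 16 did not pass the threshold of an adjusted p of 0.05 in limma. Over all 14004 genes tested, 27.9% were called lower, 27.9% higher and 55.8% in either direction. The median log2 change of the tested enzyme genes was -0.20, against 0.01 over all genes tested. Both NAT10-si libraries lay below both control libraries for 27 of the 41 (40.1% of all genes tested) and above them for 11 (40.4% of all genes tested). The arms overlapped only for TRMT1, CTU2 and TRIT1, and over all genes tested they did not overlap for 80.4%. The count of lower genes stayed between 15 and 20 under 9 other settings, including each library left out in turn. The count of higher genes was less firm, and it fell with each library left out in turn. Counts of higher and of lower genes over all genes tested fell there too, so the drop is not read as a trait of the enzyme genes. How many of all genes tested kept a call throughout was not computed, so the next counts have no background. Under all 9 settings, 13 of the lower and 2 of the higher genes kept their call, and no called gene changed its direction.

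**Figure D1:**
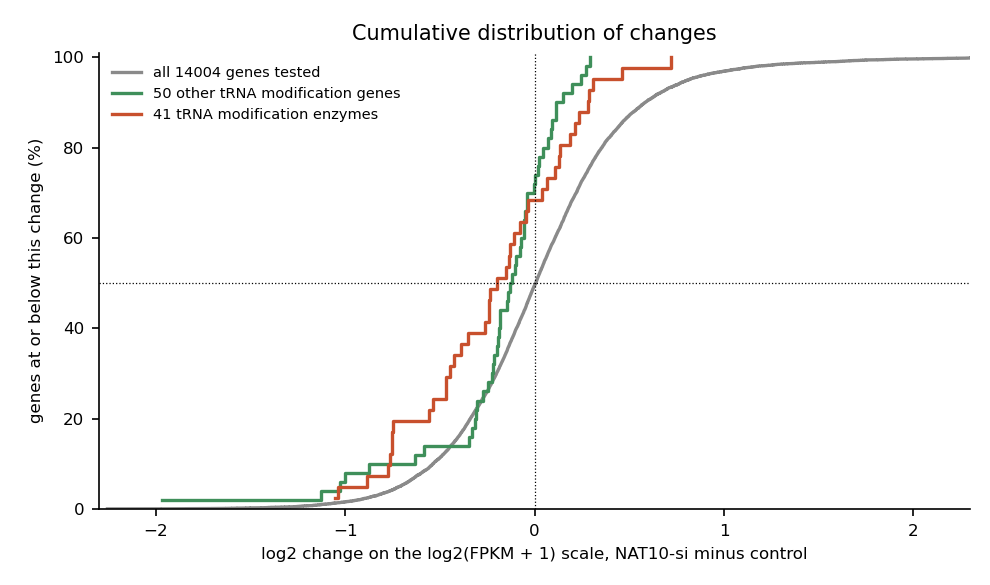
Cumulative share of genes (y axis, in %) at or below each log2 change on the log2(FPKM + 1) scale (x axis, NAT10-si minus control) for all 14004 genes tested, the 41 tested enzyme genes and 50 other genes of tRNA modification. The line of the enzyme genes crosses 50% at -0.20 and the line of all genes at 0.01.

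Levels differed widely between the enzyme genes. As far as the gene lengths it divides by are right, which was not checked, the FPKM scale allows levels to be set against each other. In the control arm they ranged from 0.591 ± 0.104 FPKM (SD, n = 2) for TRMT10A to 33.2 ± 0.820 FPKM (SD, n = 2) for ELP5, with a median of 6.51 FPKM over the 41 tested genes. After ELP5 came NSUN2, TRMT10C, YRDC and TRMT6, at control means of 29.0, 25.7, 16.8 and 16.5 FPKM. The next in order, TRMT1 (16.9 and 14.4 FPKM) and TRMT61A (14.9 and 15.6 FPKM), did not differ beyond the spread of their libraries, nor did WDR4 (11 and 10.2 FPKM) and PUS1 (10.6 and 10.2 FPKM). Values rest on recovered reads, the whole reads behind the deposited values, of 16968043 to 35046827 per library.

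TRMT10A and ELP4 had means under 1 FPKM and were not tested. TRMT10A, which methylates a purine between the acceptor and D stems of cytosolic tRNAs, was at 0.518 and 0.665 FPKM in the control arm, against 0.253 and 0.192 FPKM in the NAT10-si libraries, from 15 to 83 recovered reads. The NAT10-si values were both the lower ones, and a fit with no filter gave an adjusted p of 0.0614 in limma. ELP4, a subunit of the outer ring of Elongator, was at 0.622 and 0.630 FPKM in the control and 0.717 and 0.684 FPKM in the NAT10-si libraries, and the same fit gave 0.664. The values of ELP4 rest on 334 to 621 recovered reads, so its low FPKM is not a low read count. CTU1, with 217 to 348 reads, was at 4.54 to 8.80 FPKM, so the level of ELP4 against other genes is uncertain. PUS10, with control values of 0.864 and 0.854 FPKM, passed the filter only through its NAT10-si values of 1.19 and 1.33 FPKM.

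**Figure D2:**
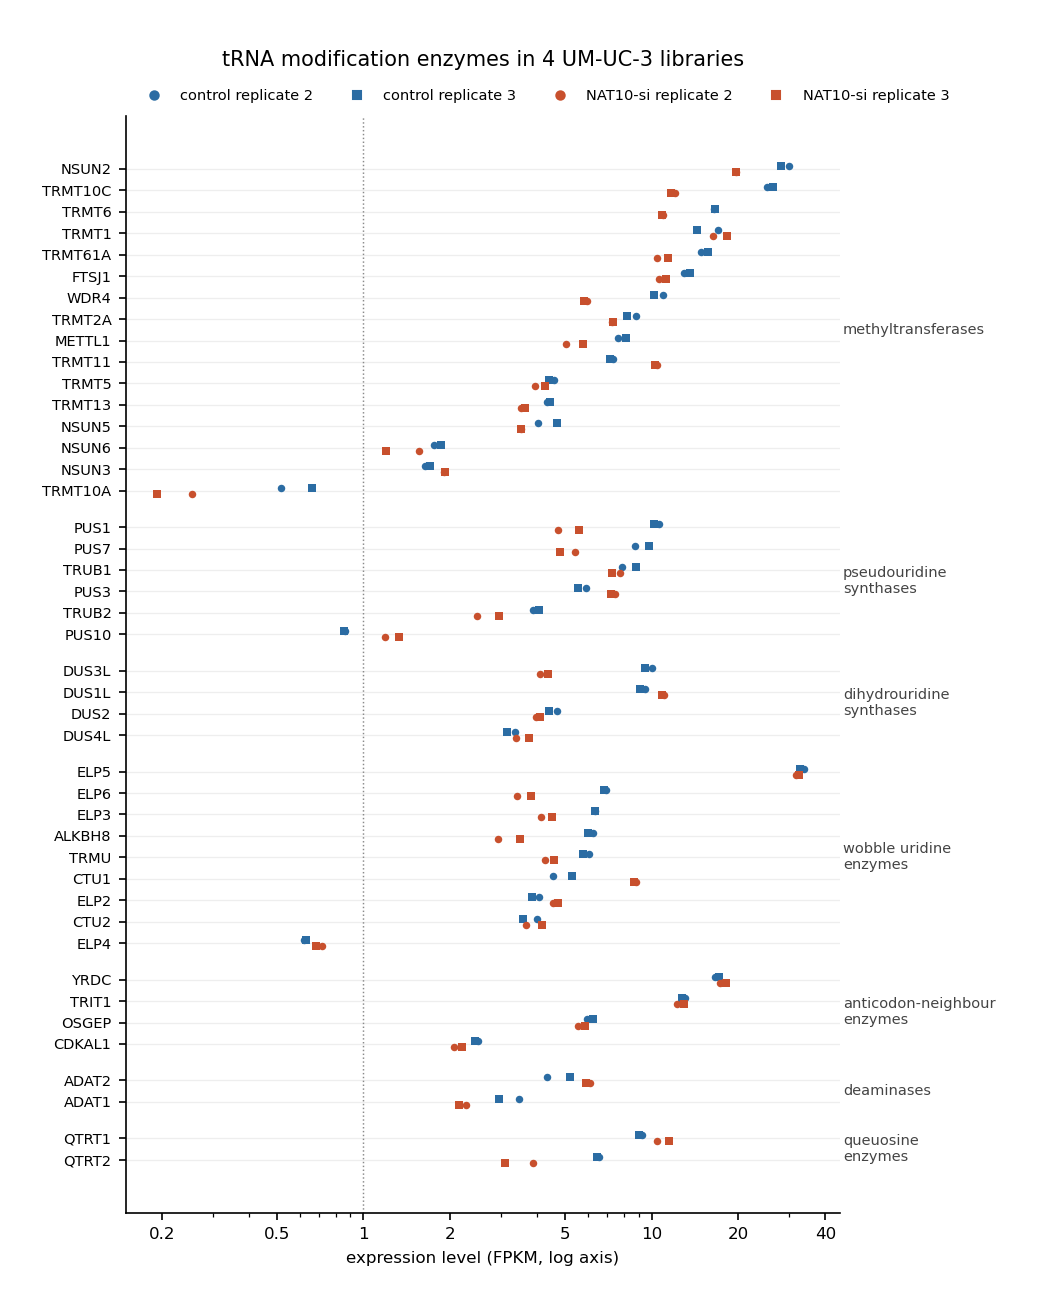
Level of each of the 43 enzyme genes in FPKM (x axis, log scale) in the 4 UM-UC-3 libraries, grouped by role (y axis); circles are replicate 2, squares replicate 3, and the dotted line is the filter of 1 FPKM. NAT10-si points lie to the left of control points for genes such as TRMT10C, DUS3L and PUS1 and to the right for CTU1 and TRMT11.

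The methyltransferases are the largest of the role groups and held the largest number of decreases. Of 15 tested, 9 (60%) were lower, 1 (6.67%) was higher and 5 did not pass, against 27.9% of all genes tested in each direction. Their median log2 change was -0.24. TRMT10C had the largest fall of all the enzyme genes. It is the methyltransferase subunit of mitochondrial RNase P, the complex that trims and methylates mitochondrial tRNAs, and the gene lies at chr3:101561868-101566446 in GRCh38.p14. Its level was 25.1 and 26.3 FPKM in the control libraries and 12.1 and 11.7 FPKM in the NAT10-si libraries. The arms were far apart, and TRMT10C fell by 1.05 on the log2 scale (SE 0.0496, adjusted p = 0.000193 in limma), and its mean FPKM fell by 53.8%.

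The other 2 subunits of mitochondrial RNase P did not pass the threshold. HSD17B10, the dehydrogenase that scaffolds the methyltransferase, was at 38.7 and 37.6 FPKM in the control and 36.3 and 35.0 FPKM in the NAT10-si libraries (log2 change -0.10, adjusted p = 0.117 in limma). PRORP, the nuclease subunit, was at 1.39 and 1.58 against 1.02 and 1.00 FPKM (log2 change -0.31, adjusted p = 0.0504). The ratio of TRMT10C to HSD17B10 was 0.648 and 0.699 in the control libraries and 0.333 and 0.333 in the NAT10-si libraries.

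Both subunits of the tRNA 7-methylguanosine methyltransferase fell. METTL1, the catalytic subunit, was at 7.61 and 8.13 FPKM in the control arm, against 5.04 and 5.78 FPKM in the NAT10-si libraries. WDR4, the non-catalytic subunit that positions the tRNA, was at 11 and 10.2 against 5.98 and 5.82 FPKM. Neither gene's arms overlapped, and the falls were 0.47 (SE 0.0776, adjusted p = 0.00516) for METTL1 and 0.75 (SE 0.0587, adjusted p = 0.000558) for WDR4 on the log2 scale in limma. The ratio of METTL1 to WDR4 was 0.693 and 0.796 in the control and 0.842 and 0.993 in the NAT10-si libraries.

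Both subunits of the T-loop 1-methyladenosine methyltransferase also fell. TRMT6, the tRNA-binding subunit, was at 16.4 and 16.5 FPKM in the control and 10.9 and 10.8 FPKM in the NAT10-si libraries. TRMT61A, the catalytic subunit, was at 14.9 and 15.6 against 10.4 and 11.4 FPKM. The log2 changes were -0.56 (95% interval -0.67 to -0.44) for TRMT6 and -0.45 (95% interval -0.60 to -0.29) for TRMT61A, and the difference between them was not tested. NSUN2, which makes 5-methylcytosine in many tRNAs, had the second highest level of all the enzyme genes. It was at 29.8 and 28.1 FPKM in the control and 19.6 and 19.7 FPKM in the NAT10-si libraries, and fell by 0.54 on the log2 scale (adjusted p = 0.000785 in limma).

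The 3 smaller decreases among the methyltransferases depended on the libraries. FTSJ1, which methylates riboses of the anticodon loop, was at 13.0 and 13.6 FPKM in the control and 10.6 and 11.2 FPKM in the NAT10-si libraries (log2 change -0.26, adjusted p = 0.0116). Its adjusted p rose to 0.0666 without control replicate 3 and to 0.0512 without NAT10-si replicate 2, within a range of 0.0026 to 0.0666 over 9 settings. TRMT13, a ribose methyltransferase of the acceptor stem, was at 4.32 and 4.45 against 3.51 and 3.63 FPKM (log2 change -0.24, adjusted p = 0.0232). TRMT2A, which makes the 5-methyluridine of the T loop, was at 8.83 and 8.23 against 7.26 and 7.32 FPKM (log2 change -0.20, adjusted p = 0.0313). Without any 1 of the 4 libraries, neither TRMT13 nor TRMT2A passed, with adjusted p of 0.0514 to 0.125 and 0.056 to 0.156. With no filter they were at 0.0638 and 0.0728, and with a replicate block TRMT2A was at 0.0515. Over all 9 settings the ranges were 0.0158 to 0.125 and 0.0139 to 0.156. TRMT2A overlaps RANBP1 in the RefSeq annotation, and the sources used here do not say whether the counting used strand.

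TRMT11 was the only methyltransferase of the list that rose. It is the catalytic partner of TRMT112 in making 2-methylguanosine in the D stem. Its level was 7.36 and 7.14 FPKM in the control libraries and 10.5 and 10.3 FPKM in the NAT10-si libraries. The change was 0.46 on the log2 scale (SE 0.0505, adjusted p = 0.00134 in limma), or 43.0% in mean FPKM, and the arms did not overlap. TRMT112 itself, which also activates ALKBH8, was at 63.8 and 64.1 against 66.7 and 69.5 FPKM and did not pass (log2 change 0.09, adjusted p = 0.117).

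The remaining 5 methyltransferases, TRMT1, TRMT5, NSUN3, NSUN5 and NSUN6, did not pass, with log2 changes from -0.24 (NSUN6) to 0.13 (TRMT1). NSUN5, which is known to methylate the RNA of the large ribosomal subunit and not a tRNA, was at 4.03 and 4.68 FPKM in the control and 3.51 and 3.52 FPKM in the NAT10-si libraries (adjusted p = 0.0507 in limma). It passed with a pseudocount of 0.1 (0.0478), with voom on recovered reads (0.0439) and without control replicate 2 (0.0489), within a range of 0.0439 to 0.241. For NSUN3, which methylates mitochondrial methionine tRNA, the 95% interval of the log2 change ran from -0.08 to 0.34.

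**Figure D3:**
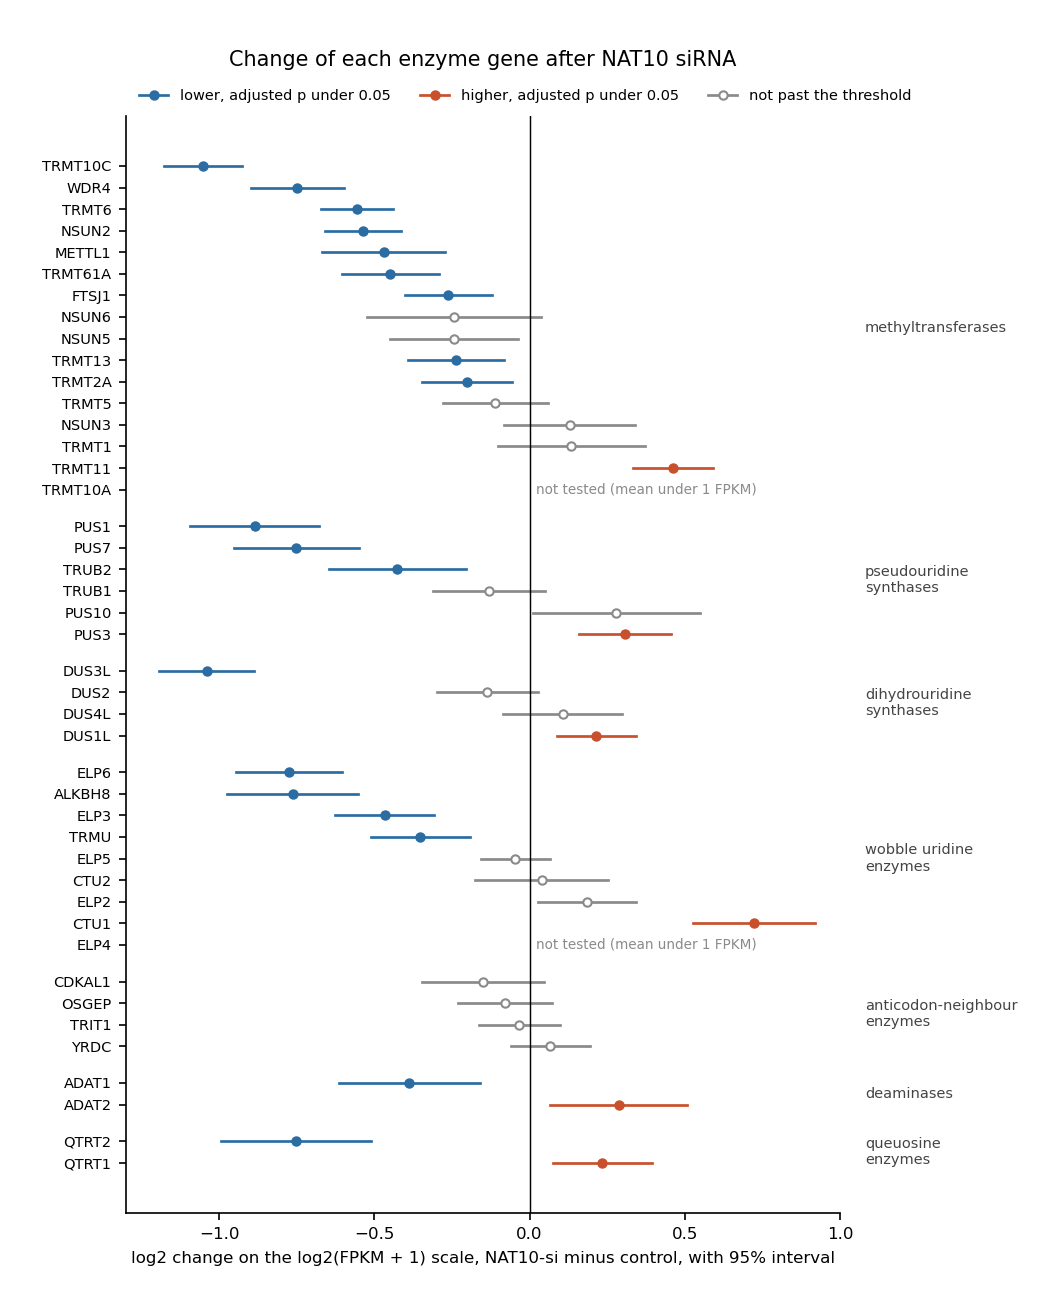
Log2 change of each enzyme gene on the log2(FPKM + 1) scale (x axis, NAT10-si minus control) with its 95% interval from limma, grouped by role (y axis); filled points passed an adjusted p of 0.05 and open points did not. TRMT10C (-1.05) and DUS3L (-1.04) lie farthest to the left and CTU1 (0.72) farthest to the right.

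The pseudouridine synthases moved in both directions, with 3 of 6 lower, 1 higher and 2 not past the threshold, against 27.9% of all genes tested in each direction. PUS1, which modifies cytosolic and mitochondrial tRNAs, fell from 10.6 and 10.2 FPKM in the control libraries to 4.74 and 5.61 FPKM in the NAT10-si libraries. Its relative PUS3, which acts on the anticodon arm, went the other way, from 5.90 and 5.54 to 7.43 and 7.21 FPKM. The arms of both genes were apart, with log2 changes of -0.88 (SE 0.0820, adjusted p = 0.000839) for PUS1 and 0.31 (SE 0.0583, adjusted p = 0.00815) for PUS3 in limma. PUS3 reached an adjusted p of 0.0521 without control replicate 3, the highest in a range of 0.003 to 0.0521. PUS3 shares its locus with HYLS1 on the other strand. The ratio of PUS1 to PUS3 was 1.80 and 1.84 in the control and 0.638 and 0.778 in the NAT10-si libraries. As far as the gene lengths are right, PUS1 was the higher of the pair in the control arm and PUS3 in the NAT10-si arm.

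PUS7, which modifies tRNAs and mRNAs at a short sequence motif, was at 8.77 and 9.75 FPKM in the control and 5.40 and 4.79 FPKM in the NAT10-si libraries. It fell by 0.75 on the log2 scale (SE 0.0797, adjusted p = 0.00122 in limma). The 2 TRUB enzymes, TRUB1 of the T loop of nuclear-encoded tRNAs and the mitochondrial TRUB2, are set side by side. TRUB2 was at 3.88 and 4.07 against 2.47 and 2.95 FPKM (log2 change -0.43, adjusted p = 0.0107). TRUB1 was at 7.89 and 8.79 against 7.79 and 7.27 FPKM and did not pass (log2 change -0.13, 95% interval -0.31 to 0.05). The ratio of TRUB2 to TRUB1 was 0.492 and 0.463 in the control and 0.318 and 0.406 in the NAT10-si libraries. The call of TRUB2 was lost without control replicate 2 (0.052), without control replicate 3 (0.0672) and with no filter (0.0532), in a range of 5.55e-06 to 0.0672. PUS10, a synthase of the T loop, had a log2 change of 0.28 (adjusted p = 0.0728 in limma). PUS10 met the filter only through its NAT10-si values, so nothing is read from its being higher. It is still 1 of the 11 tested enzyme genes counted with both NAT10-si libraries above both control libraries. With voom on 64 to 121 recovered reads a library it passed at 0.00837, in a range of 0.00837 to 0.215.

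The 4 dihydrouridine synthases are flavin enzymes that reduce uridines of the D loop and, for DUS3L, of the variable loop. Of these, 1 was lower and 1 was higher, against 27.9% of all genes tested in each direction. DUS3L, at chr19:5785140-5791163 in GRCh38.p14, was at 10.0 and 9.49 FPKM in the control arm, against 4.10 and 4.36 FPKM in the NAT10-si libraries. It fell by 1.04 on the log2 scale (SE 0.0602, adjusted p = 0.000276 in limma), and its mean FPKM fell by 56.6%. DUS1L was at 9.46 and 9.09 against 11 and 10.8 FPKM, a rise of 0.21 on the log2 scale (SE 0.0503, adjusted p = 0.0167). The 2 genes had nearly the same level in the control arm, with ratios of DUS3L to DUS1L of 1.06 and 1.04, and ratios of 0.373 and 0.403 in the NAT10-si arm. DUS1L lost its call without any 1 of the libraries, with adjusted p from 0.0521 to 0.0884, in a range of 0.000448 to 0.0884 over 9 settings. DUS2 (4.69 and 4.39 against 3.97 and 4.10 FPKM) and DUS4L (3.34 and 3.15 against 3.39 and 3.76 FPKM) did not pass, and DUS4L overlaps the read-through gene DUS4L-BCAP29 on the same strand, so its reads are uncertain.

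Wobble uridine enzymes modify the first base of the anticodon. Of 8 tested, 4 were lower, 1 was higher and 3 did not pass, against 27.9% of all genes tested in each direction. ELP3, the catalytic subunit of Elongator, was at 6.35 and 6.35 FPKM in the control and 4.13 and 4.51 FPKM in the NAT10-si libraries. ELP6, a subunit of its outer ring, was at 6.93 and 6.81 against 3.41 and 3.8 FPKM. Both fell, by 0.47 (SE 0.0631, adjusted p = 0.00265) and 0.77 (SE 0.0671, adjusted p = 0.000711) on the log2 scale in limma.

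ELP2 and ELP5, other subunits of Elongator, did not pass the threshold. ELP2, a subunit of the core of the complex, was at 4.06 and 3.84 against 4.54 and 4.72 FPKM (log2 change 0.19, adjusted p = 0.0536), and passed with voom (0.00154, in a range of 0.00154 to 0.227). ELP5, the most abundant of the enzyme genes, was at 33.8 and 32.6 against 31.8 and 32.5 FPKM (log2 change -0.05, 95% interval -0.16 to 0.06). ELP5 overlaps CTDNEP1 and CLDN7 on the other strand. The ratio of ELP6 to ELP5 was 0.205 and 0.209 in the control and 0.107 and 0.117 in the NAT10-si libraries.

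ALKBH8, which finishes the side chain that Elongator starts, was also lower. It was at 6.24 and 6.02 FPKM in the control and 2.93 and 3.49 FPKM in the NAT10-si libraries (log2 change -0.76, SE 0.0835, adjusted p = 0.00134 in limma). TRMU, which adds sulfur to the wobble uridine of mitochondrial tRNAs, was at 6.04 and 5.79 against 4.26 and 4.58 FPKM (log2 change -0.35, adjusted p = 0.00681). Without control replicate 2 its adjusted p was 0.052, in a range of 2.7e-06 to 0.052.

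CTU1 had the largest rise of the enzyme genes. With CTU2 it forms the cytosolic thiolase of the wobble uridine, and the gene lies at chr19:51097606-51108409 in GRCh38.p14. Its level was 4.54 and 5.31 FPKM in the control libraries and 8.80 and 8.71 FPKM in the NAT10-si libraries, with no overlap. The change was 0.72 on the log2 scale (SE 0.0774, adjusted p = 0.00127 in limma), or 77.7% in mean FPKM. CTU2 was at 4.0 and 3.57 against 3.68 and 4.16 FPKM, with arms that overlapped (log2 change 0.04, 95% interval -0.17 to 0.25). CTU2 overlaps PIEZO1 on the other strand. The ratio of CTU1 to CTU2 was 1.14 and 1.49 in the control and 2.39 and 2.09 in the NAT10-si libraries.

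None of the 4 enzymes listed as building side groups on the adenosine next to the anticodon passed the threshold, against 55.8% of all genes tested. The adenosine deaminases are counted apart. At an unadjusted p under 0.05 the group also had 0 calls, and voom, the other tool run, gave 0. OSGEP and YRDC make threonylcarbamoyladenosine, CDKAL1 adds a methylthio group to it, and TRIT1 adds an isopentenyl group. YRDC was at 16.6 and 17.1 FPKM in the control and 17.2 and 18.2 FPKM in the NAT10-si libraries, and TRIT1 at 13.0 and 12.7 against 12.2 and 12.9 FPKM. OSGEP was at 5.94 and 6.25 against 5.57 and 5.86 FPKM. CDKAL1 was at 2.51 and 2.43 against 2.05 and 2.2 FPKM. Their log2 changes ran from -0.15 (CDKAL1) to 0.07 (YRDC), and the widest 95% interval, that of CDKAL1, ran from -0.35 to 0.05. Of the OSGEP complex, TP53RK, its kinase, was lower (5.81 and 5.44 against 4.51 and 4.13 FPKM, log2 change -0.32, adjusted p = 0.0131). LAGE3, TPRKB and GON7, the other subunits, did not pass, with log2 changes of 0.02, -0.22 and -0.06.

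The 2 adenosine deaminases and the 2 queuosine enzymes split by gene. Each group had 1 lower and 1 higher gene, against 27.9% of all genes tested in each direction. ADAT1, which makes inosine in alanine tRNA, was at 3.45 and 2.95 FPKM in the control and 2.27 and 2.14 FPKM in the NAT10-si libraries (log2 change -0.39, SE 0.0895, adjusted p = 0.016 in limma). ADAT2, the catalytic subunit of the wobble adenosine deaminase, was at 4.33 and 5.20 against 6.09 and 5.92 FPKM (log2 change 0.29, SE 0.0871, adjusted p = 0.0386). Its partner ADAT3 was at 2.24 and 2.03 against 1.04 and 1.00 FPKM (log2 change -0.63, adjusted p = 0.00352), and overlaps SCAMP4 on the same strand, so its reads are uncertain. The ratio of ADAT2 to ADAT3 was 1.94 and 2.56 in the control and 5.87 and 5.92 in the NAT10-si libraries. The call of ADAT1 was lost without control replicate 2 (0.0971), without NAT10-si replicate 3 (0.0556) and with no filter (0.0699), in a range of 0.000129 to 0.0971. That of ADAT2 was lost without control replicate 2 (0.147), NAT10-si replicate 2 (0.114) or NAT10-si replicate 3 (0.0918), with no filter (0.126) and with a replicate block (0.0529), in a range of 0.00038 to 0.147.

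QTRT1 and QTRT2 form the transglycosylase that inserts queuine into the anticodon. QTRT2, the non-catalytic subunit, was at 6.55 and 6.47 FPKM in the control arm, against 3.86 and 3.09 FPKM in the NAT10-si libraries (log2 change -0.75, SE 0.0953, adjusted p = 0.00214 in limma). QTRT1, the catalytic subunit, was at 9.26 and 9.07 against 10.4 and 11.5 FPKM (log2 change 0.23, SE 0.0629, adjusted p = 0.0262). The ratio of QTRT2 to QTRT1 was 0.707 and 0.714 in the control and 0.371 and 0.268 in the NAT10-si libraries. QTRT1 lost its call with no filter (0.0764), without control replicate 2 (0.0884), without control replicate 3 (0.11) and without NAT10-si replicate 3 (0.0983), in a range of 0.00132 to 0.11, and QTRT2 kept its call under all 9 settings.

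**Figure D4:**
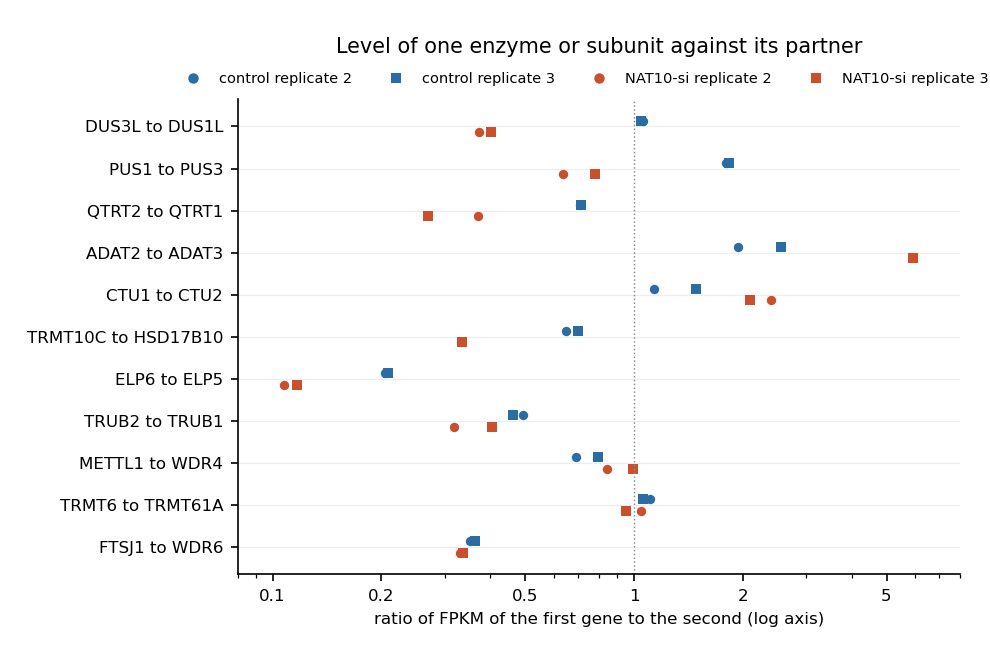
Ratio of the FPKM of 1 enzyme or subunit to that of its partner or relative (x axis, log scale) in each of the 4 libraries, for 11 pairs (y axis); circles are replicate 2 and squares replicate 3. The ratio of DUS3L to DUS1L was 1.04 and 1.06 in the control and 0.373 and 0.403 in the NAT10-si libraries, while that of TRMT6 to TRMT61A lay between 0.95 and 1.10 in all 4.

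The arms stood apart in 80.4% of all single genes tested, so a ratio that stands apart says little about partners. With 2 libraries against 2 an exact two-sided permutation test cannot give a p below 0.333, so the ratios are given as values with no test. Of 13 pairs compared, the ratios of the 2 arms were closest for TRMT6 to TRMT61A (1.10 and 1.06 against 1.05 and 0.95) and for FTSJ1 to its partner WDR6 (0.351 and 0.363 against 0.330 and 0.337).

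Other genes of tRNA modification, 54 names written as background knowledge of the pathway, were read from the same fit. Of 50 tested, 16 (32%) were lower and 4 (8%) higher, against 27.9% of all genes tested in each direction, with a median log2 change of -0.12. Among the higher ones were TRMT10B, RPUSD3 and NFS1, named after their values were seen. With no filter none of the 54 was called higher in limma (4 at an unadjusted p under 0.05), and voom called 5. Without control replicate 2 and without control replicate 3 the count was 0 (1 and 1 unadjusted), and without NAT10-si replicate 2 and without NAT10-si replicate 3 it was 1. After NAT10, the smallest p-values were those of TRMT2B, THUMPD1, MOCS3, RPUSD1 and RPUSD2, all lower.

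THUMPD1, the tRNA-binding partner of NAT10, was at 5.30 and 5.79 FPKM in the control and 2.31 and 2.22 FPKM in the NAT10-si libraries (log2 change -1.0, adjusted p = 0.000437 in limma). TRMT2B, a mitochondrial relative of TRMT2A, was at 8.67 and 7.87 against 3.24 and 3.23 FPKM (log2 change -1.13, adjusted p = 0.000292). MOCS3 feeds sulfur to URM1 for the CTU1 and CTU2 thiolase, and was at 2.52 and 2.52 against 0.786 and 0.668 FPKM (log2 change -1.03, adjusted p = 0.000823). MOCS3 passed the filter only through its control values, so nothing is read from its being lower, though it is 1 of the 16 counted as lower. Also lower were 2 genes of the pseudouridine synthase family, RPUSD1 from 14.3 and 12.2 to 6.64 and 6.87 FPKM and RPUSD2 from 7.18 and 7.30 to 4.19 and 4.84 FPKM.

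Other properties of the libraries moved with the arms. Of 4 proliferation markers, all 4 were lower, with summed levels of 390 and 391 FPKM in the control and 139 and 139 FPKM in the NAT10-si libraries. The 4 measured RNAs of the mitochondrial ribosome and the nucleus (MT-RNR1, MT-RNR2, MALAT1 and NEAT1) were all higher, with sums of 3392 and 3452 against 8216 and 8989 FPKM, and RN7SL1 and RN7SK were listed at 0. The 10 immune and plasma cell markers had sums of 1.82 and 1.04 against 44.8 and 14.7 FPKM. Of these, LCP1, IGKC and IGHA1 passed the filter, each only through its NAT10-si values, so nothing is read from their being higher, while PTPRC and MS4A1 were at 0 in all 4 libraries and CD3E was at or near 0. Of 13 epithelial and urothelial markers, KRT18 was lower and KRT7 higher, and sums were 117 and 118 against 90.4 and 85.8 FPKM. KRT5, CDH1, UPK1B and UPK3A had means under 0.1 FPKM. KRT19 was at 0.0585 and 0.0656 against 3.25 and 0.646 FPKM, met the filter only through its NAT10-si values and did not pass. EPCAM (0 and 0.0811 against 0.755 and 0.0888 FPKM) and CDH1 were not tested. Like the immune sum, KRT19, EPCAM, CDH1 and UPK2 were highest in NAT10-si replicate 2, where EPCAM and CDH1 had 9 and 13 recovered reads. KRT7, KRT5, PPARG and UPK1A were highest in NAT10-si replicate 3. KRT8, KRT18, GATA3 and UPK1B were highest in a control library, and KRT8 did not pass (adjusted p = 0.231 in limma). Of 3 mesenchymal markers, VIM was lower (672 and 654 against 458 and 484 FPKM), FN1 was higher (2.58 and 2.47 against 4.80 and 4.52 FPKM) and CDH2 did not pass. Without NAT10-si replicate 2, the library with the highest immune sum, 16 enzyme genes were lower and 4 higher. The part of these differences in the changes of the enzyme genes was not tested, and in bulk RNA less RNA per cell cannot be told apart from fewer cells of a kind.

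Promoters of 37 of the 43 enzyme genes were matched in the RefSeq table of GRCh38.p14, over the 250 bases before the start listed for the promoter. The windows of ELP5 (chr17:7252176-7252425) and WDR4 (chr21:42879540-42879789) lie inside their annotated genes, and those of NSUN6 and PUS10 partly overlap theirs. A set of 7 motifs was searched on both strands: CACGTG, TTTCCCGC, TTTGGCGC, TGACGTCA, TGATGCAA, CCGGAAGT and the palindromic site of NRF1. CCGGAAGT, the core bound by ETS factors, was found in 5 promoters (13.5%), those of TRMT61A, TRMT10C, NSUN3, NSUN5 and TRMU, against 7.64% of the 9383 promoters of tested genes and 3.64% of all 27305. Of these 5 genes, 3 were lower and 2 did not pass. TGACGTCA, the full site of CREB family factors, was found in 4 (10.8%), those of DUS2, ELP5 (inside the gene), CTU2 and ADAT1, against 3.13% of tested genes. CACGTG was found in QTRT1 (9.09% of tested genes), TTTCCCGC in DUS1L (2.37%) and TTTGGCGC in TRMT6 (0.853%), and the other 2 motifs in none of the 37. In the promoters printed above, the capitals in TRMT10C are CCGGAAGT read on the other strand. The median GC content was 58.8% in 14 promoters of lower genes, 63.2% in 6 of higher genes, 55.6% in 15 of genes that did not pass and 65.2% over tested genes. These matches are descriptions of the letters in the window.

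The acRIP lists give regions of the same transcripts called as enriched by the immunoprecipitation, and whether each region is acetylated was not tested. In the replicate round, 22 of the 43 enzyme genes (51.2%) had a peak in the control list, against 49.6% of all genes tested. In the NAT10-si list of that round 29 of 43 (67.4%) had one, against 64.5%. Both shares are near their background. The control list held 10253 peaks and the NAT10-si list 16753, and with both lists at the length of the shorter one the NAT10-si count of enzyme genes was 17 (39.5%), against 48.4% of all genes tested. The first round was far smaller, with 685 and 666 peaks. Only DUS3L had a peak in its control list (3.03% of genes tested had one) and no enzyme gene had one in its NAT10-si list (3.48% of genes tested). The lists give 1 set of peaks per arm and round, so differences between arms have no replicate check.

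**Figure D5:**
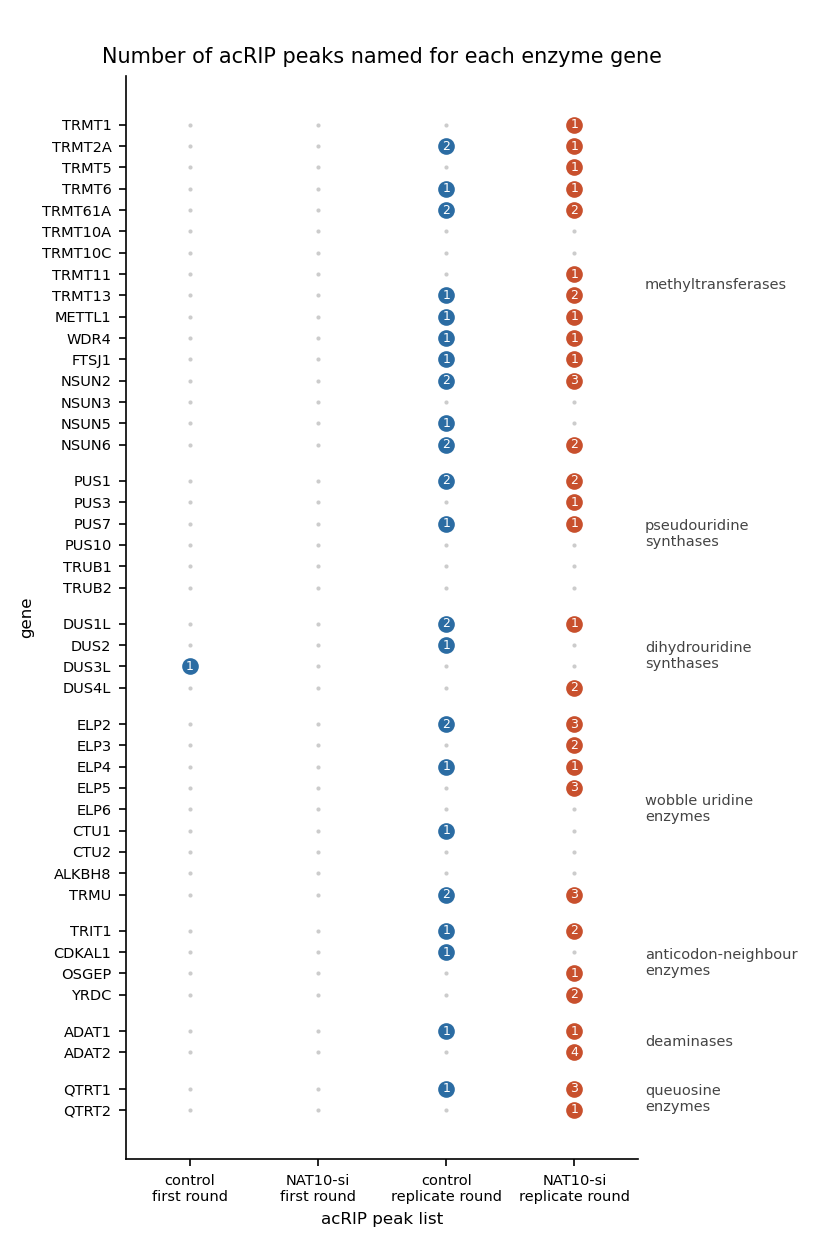
Number of acRIP peaks named for each enzyme gene (y axis, grouped by role) in the 4 peak lists (x axis); numbers in circles are peak counts and small grey dots are 0. DUS3L is the only gene with a peak in the first round, and ADAT2 has the most peaks, 4 in the NAT10-si list of the replicate round.

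By arm, 18 enzyme genes had a peak in both lists of the replicate round, 4 only in the control list, 11 only in the NAT10-si list and 10 in neither. Over all genes tested the shares were 43.9% in both, 5.76% in control only, 20.6% in NAT10-si only and 29.7% in neither. The 4 with a peak only in the control list were NSUN5, DUS2, CTU1 and CDKAL1. The 10 in neither were TRMT10A, TRMT10C, NSUN3, PUS10, TRUB1, TRUB2, DUS3L, ELP6, CTU2 and ALKBH8. This split counts every listed peak, weak ones included. By the authors' false discovery rate, no control peak of CDKAL1, FTSJ1, PUS1, PUS7, QTRT1 or TRMT6 met a limit of 0.05. No NAT10-si peak of ELP3 met it. With weaker peaks left out, 16 enzyme genes had a control peak and 28 a NAT10-si peak. The split by arm was not computed at that limit. Of the 30 control peaks in enzyme genes, 21 (70%) overlapped a NAT10-si peak on the same strand by 1 base or more, against 73.9% of all control peaks in that round.

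Peak coordinates are as the lists give them, counted from 1, and gene ends are those of GRCh38.p14. METTL1 had the strongest control peak of the enzyme genes by the authors' fold enrichment. It lay at chr12:57768471-57768977, over the end of the gene, with a fold of 614, rank 48 of 10253. The NAT10-si list had a peak inside it, at chr12:57768501-57768947, with a fold of 42.1 and rank 2219 of 16753. Folds from lists of different lengths and separate calls do not measure a change. WDR4, the partner of METTL1, had a control peak at chr21:42843094-42843273 with a fold of 112, and the NAT10-si list had one that overlapped it with a fold of 70.2.

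DUS1L also had a control peak with a fold of 112, at chr17:82057836-82058016. In the NAT10-si list the highest folds among the enzyme genes were 119 for a peak of ADAT2 at chr6:143427645-143428063 and 96.5 for a peak of NSUN2 at chr5:6599239-6599748. ADAT2 had no control peak. The control peak of CTU1, at chr19:51098768-51098947, had a fold of 24.1 and no counterpart in the NAT10-si list. The first-round peak of DUS3L, at chr19:5787121-5787345 in 2 blocks with a fold of 28.5, lay inside the gene, 2093 bases from its end.

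Positions of the peaks were read against the annotated ends of their genes, and the shares in the enzyme genes were near those of the whole lists. In the replicate round, 19 of 30 control peaks (63.3%) were centred within 1000 bases of the annotated end of the gene, against 59.1% of all control peaks in genes with an entry. For NAT10-si it was 22 of 50 (44%) against 49.8%. Peaks centred within 1000 bases of the annotated start were few in both lists (4.76% of all control and 5.90% of all NAT10-si peaks), and none of them was in an enzyme gene. A peak named for TRMU in each arm was centred upstream of the RefSeq start of that gene.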

How the data were processed

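Per the labels' protocols, libraries were made from Trizol-extracted, column-purified total RNA, and neither poly(A) selection nor rRNA depletion is named. HISAT2 2.1.0, HTSeq 0.6.1, bcl2fastq 2.19.1 and hg19 are named in the submitters' processing notes. The expression values the authors deposited were read as FPKM, scaled by them to gene length and library size before deposit; the header of the deposited table names no unit, and the reading rests on column sums of 310508 to 319224 and on steps that depended on the gene. The values of 27568 of the 27571 genes seen in 2 libraries or more were whole multiples of 1 read (relative tolerance 1e-09), which gave 35046827, 18745474, 17785553 and 16968043 reads (control replicates 2 and 3, NAT10-si replicates 2 and 3). These are the smallest whole numbers that fit, so true counts may be larger. Replicates differed beyond sampling noise (chi-square per degree of freedom 2.64 and 2.56). Per the file headers, the deposited peak lists hold for each peak a ratio (fold enrichment) and a p-value from the authors' calling. The authors also deposited 2 log10 columns, for p and for the false discovery rate, treated here as score values. The sources used here do not name a peak caller. Only their names gave the arm and round of the 2 earlier lists. Although hg19 is named, 97.3% to 98.4% of the peaks that could be checked overlapped their RefSeq gene in GRCh38.p14.

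Here limma-trend (limma 3.58.1, R 4.3.3) was fitted to log2(FPKM + 1) of the 14004 genes whose mean over the 4 libraries reached 1 FPKM, with two-sided tests and Benjamini-Hochberg adjustment over all of them at 0.05. Fold changes on this scale understate those of low genes. Every adjusted p is from this fit unless another setting is named. The fit was also run on simulated data with the same excess spread for every gene and few changed genes. These settings differ from the data, so nothing is read from that run here. Same-numbered libraries did not deviate together (correlation 0.0125), so no pairing was used. Peaks were compared with bedtools 2.31.1, and promoters searched with Python 3.11.15. The genes and lists were chosen with earlier results of these data known. Named with full values were up to 4 genes of each role by p, partners in complexes, genes with a log2 change of at least 1, genes with an unstable call, genes under the filter or with a first-round peak, and 6 other pathway genes by p; HSD17B10, PRORP, TRMT112, WDR6, TRMT11 and single peaks were named after their values were seen. Alternatives were a pseudocount of 0.1, no filter, median centring, voom on recovered reads, each library left out, a replicate block and, for peaks, a false discovery rate of 0.05, equal list lengths and 50% overlap. With 1 library left out, the lone library of an arm was assumed to vary like the other arm's. The result for 1 gene of the wider pathway list is not reported here.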

Additional observations from a re-analysis of the deposited data

How the results depend on the processing

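The count of enzyme genes called higher, 6, ranged from 3 to 4 when 1 library was left out, and the count called lower, 19, from 15 to 16. With no filter they were 4 and 15, with voom on recovered reads 8 and 20, and with a pseudocount of 0.1 they were 6 and 20. Over all genes tested, 3904 were higher and 3911 lower. Those counts were 3166 and 3043 with no filter and 4637 and 4185 with voom. They also fell with each library left out in turn. No paired design was supported, and with a replicate block 5 were higher and 18 lower; ADAT2 (adjusted p = 0.0529) and TRMT2A (0.0515) lost their calls there. The count of other pathway genes called higher, 4, was 0 with no filter (4 at an unadjusted p under 0.05), 1 with the replicate block and 0 to 1 with 1 library left out (1 to 3 unadjusted); the cause was not tested. Of the genes that did not pass, 2 changed sign with 1 library left out: the log2 change of CTU2, 0.04, ranged from -0.032 (without NAT10-si replicate 3; -0.025 without control replicate 3) to 0.11, and that of TRIT1, -0.03, from -0.071 to 0.0060 (without NAT10-si replicate 2). With both lists of the replicate round at the length of the shorter one, enzyme genes with a NAT10-si peak went from 29 to 17. Over all genes tested the share with one went from 64.5% to 48.4%. Control peaks that overlapped a NAT10-si peak went from 21 to 13 of 30, where fewer NAT10-si peaks were compared. The share of all control peaks was not computed at that length, so nothing about the enzyme genes is read from this drop. With only peaks that met the 0.05 limit kept, enzyme genes with a control peak in that round went from 22 to 16. Those with a NAT10-si peak went from 29 to 28. Control peaks that overlapped a NAT10-si peak were then 17 of 21. Shares over all genes tested were not computed at that limit. Median centring left the counts of higher and lower enzyme genes at 6 and 19. With 2 libraries an arm, small changes are at the limit of what the fit can call, and with 1 peak list per arm and round the peak counts carry no error.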
